A study of Mus musculus with 3 samples.

Results

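Retinoic acid acts locally, and each cell's exposure to it depends on the genes that make, destroy, import and bind it. The 9 genes described here were Aldh1a1, Aldh1a2 and Aldh1a3 (synthesis), Cyp26b1 (breakdown), Stra6 (retinol uptake), Crabp1 and Crabp2 (binding in the cytoplasm) and Rara and Rarb (nuclear receptors). They were chosen by name for these roles, and all 9 were among the 18738 genes listed in the count tables. Levels were read in single-cell RNA-seq of fetal ovarian somatic cells of CD1 mice (Charles River strain code 022) at E12.5, in 3 frozen lots numbered 26, 29 and 30. Each lot pooled the embryos of 10 pregnant females and went through magnetic depletion of cells carrying SSEA1 or CD31, surface proteins of germ and endothelial cells. The animals carried no engineered allele, no treatment was given, and the lots were not compared as conditions: the comparisons are between cell classes, with the lots as replicates.

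As background, retinol enters cells partly through the receptor STRA6 and is oxidized to retinaldehyde by retinol dehydrogenases. The ALDH1A enzymes then convert retinaldehyde to retinoic acid, which binds receptors of the RAR family paired with RXR on DNA. CYP26 enzymes oxidize retinoic acid to inactive products, and the CRABP proteins hold and deliver it inside the cell. In the fetal gonad, retinoic acid is known for its link to the entry of ovarian germ cells into meiosis and to Stra8, while CYP26B1 in the fetal testis is known for removing it.

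Rarb is itself a textbook retinoic acid target, and its promoter is shown here because it was the only member with a retinoic acid response element of the DR5 type, a direct repeat of the receptor half-site with a spacer of 5 bases, in the window that was searched. RefSeq promoter windows of GRCm38.p6, from 250 bases before to 50 bases after a transcription start, were given for 7 of the 9 members (14 windows), with none for Aldh1a3 and Crabp2. The DR5 consensus, searched on both strands, matched 0.0974% of 32851 windows (32 windows of 31 genes), and the related repeats with spacers of 1 and 2 bases matched 0.222% and 0.268% of windows and no member. Among the other genes of the retinoid pathway, Cyp26a1, another retinoic acid-degrading enzyme, also held a DR5 match. The bases before each start are given 5′ to 3′ on the gene's strand, with the match in capitals. In Rarb (chr14:16575477-16575726, minus strand) the match spanned bases 53 to 37 before the start, and in Cyp26a1 (chr19:37697558-37697807, plus strand) it lay on the opposite strand, 32 to 16 bases before the start. A match in letters is a description of the sequence, not of binding in these cells.
Rarb: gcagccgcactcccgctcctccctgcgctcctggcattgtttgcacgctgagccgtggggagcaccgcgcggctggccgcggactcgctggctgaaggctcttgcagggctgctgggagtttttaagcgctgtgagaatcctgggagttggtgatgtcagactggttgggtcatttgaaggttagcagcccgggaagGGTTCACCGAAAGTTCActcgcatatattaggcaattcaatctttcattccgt
Cyp26a1: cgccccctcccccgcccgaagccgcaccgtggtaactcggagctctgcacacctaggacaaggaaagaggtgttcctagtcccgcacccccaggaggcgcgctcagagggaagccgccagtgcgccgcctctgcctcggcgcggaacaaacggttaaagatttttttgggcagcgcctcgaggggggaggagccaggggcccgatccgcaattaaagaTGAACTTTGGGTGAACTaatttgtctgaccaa

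The tables held 9763, 8567 and 10773 cell barcodes in lots 26, 29 and 30, with a median of 11126, 8949 and 11595 unique molecular identifiers (UMIs, each standing for 1 captured transcript) per kept cell. Of 29103 barcodes, 28971 were kept. Clusters built without the 9 members were named from marker genes: 12802 pre-granulosa-like, 6395 stromal-like, 6009 epithelial-like (ovarian surface epithelium), 1471 germ-like, 389 Sertoli-like, 349 endothelial-like, 135 macrophage-like, 78 red-blood-cell-like and 53 neural-crest-like cells. For every class no listed marker was at 0, and all markers were highest in their own class except 1 of the 8 pre-granulosa markers. As the same lists named the classes, this was partly fixed in advance, and the unnamed cells were left out of the comparison. Germ-like and endothelial-like cells were present although the lots had been depleted of them, and Sertoli-like cells (led by Amh, Cst9 and Dhh) went against the ovarian label; the study set aside rare cells of testis identity, while here they were kept as a class, with 89, 284 and 16 cells in lots 26, 29 and 30. Of the rest, 1290 cells stayed unnamed: cluster 13 (717 cells, few UMIs per cell), cluster 14 (424 cells led by the steroidogenic genes Insl3, Cyp11a1 and Cyp17a1) and cluster 17 (149 cells led by Pax2, Lhx1 and Cdh16, genes of the mesonephric tubules). Within the pre-granulosa-like class, 2897 of the 3160 cells of cluster 2 came from lot 30, with heat-shock genes among its leading genes. The lots shared 19 to 30 barcodes pairwise, none with the same profile.

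Levels are given as CPM, the UMIs of a gene scaled to 1000000 UMIs of all cells of a class in a lot, as mean ± SD over n = 3 lots. They were compared between classes of cells and not between genes. Differences between classes are log2 fold changes with their standard error (SE) from edgeR's quasi-likelihood test, with p-values adjusted by the Benjamini-Hochberg method over 14870 genes and a threshold of 0.05. Of the classes tested, lot 30's Sertoli-like class held the fewest cells, 16.

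Aldh1a1 (chromosome 19, 20492715 to 20643465, plus strand, GRCm38, as are the positions that follow), the cytosolic retinaldehyde dehydrogenase, was highest in Sertoli-like cells. Its level there was 1005, 798 and 724 CPM in lots 26, 29 and 30 (842 ± 146). Pre-granulosa-like cells held 114, 83.2 and 90.3 CPM (95.7 ± 15.98) and epithelial-like cells 79.6, 60.3 and 70.2 CPM (70.0 ± 9.65). All Sertoli-like values lay far above those of every other class, and each lot's pre-granulosa-like level was above the same lot's epithelial-like level. Stromal-like cells had 20.6 ± 4.83 CPM, endothelial-like cells 16.3 ± 3.90 CPM and germ-like cells 11.7 ± 5.98 CPM, and the lots of neighbours in this order overlapped.

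The Aldh1a1 level in Sertoli-like cells was higher than in pre-granulosa-like cells by a log2 fold change of 2.97 (SE 0.23, edgeR adjusted p = 2.66e-09). Pre-granulosa-like cells were above stromal-like cells by 2.35 (SE 0.23, edgeR adjusted p = 3.44e-08), and without called doublets this was 2.98. The epithelial-like against pre-granulosa-like difference of -0.50 (SE 0.22) did not pass (edgeR adjusted p = 0.0641), but it did with the lot as a replicate block, at -0.49 (edgeR adjusted p = 0.000592), and also without the low-count filter, at resolution 1.2, with 30 principal components, with the members among the variable genes and without cluster 12. Stromal-like cells were below epithelial-like cells (-1.85, SE 0.23), by -2.50 without called doublets. Germ-like and endothelial-like cells were below the mean of the pre-granulosa-like, stromal-like and epithelial-like classes by -2.10 and -1.74, the latter -2.75 without called doublets.

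Aldh1a1 was not even within the epithelial-like class. In its cluster 10 the level was 11.5 ± 2.62 CPM, while clusters 4, 6 and 8 had means of 66 to 95 CPM. Cluster 10 was led by Pappa2, Upk1b and Krt19, with Hoxd11, Hand2, Rspo3 and Sema3d also among its 10 leading genes. The unnamed steroidogenic cluster 14 reached 364, 172 and 456 CPM. After each cell was thinned to 4000 UMIs, 91.7% of Sertoli-like cells (95% exact binomial interval 88.4% to 94.2%, 99.2% unthinned) had an Aldh1a1 UMI, against 25.4% of pre-granulosa-like (44.0% unthinned) and 4.00% of red-blood-cell-like cells (11.5% unthinned). Median depths before thinning were 11865, 10045 and 9483 UMIs. Such intervals cover counting error only. The thinned share in germ-like cells (3.83%) was below that of red-blood-cell-like cells. As the latter rested on 3 of 75 cells, a low level in germ-like cells cannot be told apart from background. Stromal-like cells had a thinned share of 5.00%, within the red-blood-cell-like interval of 0.833% to 11.2%, but their cluster 11 had 12.45% (10.3% to 14.9%; 29.8% unthinned), with an interval that overlapped the red-blood-cell-like one, and stood at 67.1, 31.2 and 49.2 CPM. Aldh1a7, a close relative of Aldh1a1, was counted from uniquely mapped reads, so reads shared by the pair were lost to both.

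Aldh1a2 (chromosome 9, 71215789 to 71296243, plus strand), the main retinoic acid-making enzyme of the early embryo, was highest in epithelial-like cells. It stood at 231, 252 and 218 CPM there (234 ± 16.9), at 90.6, 94.1 and 90.0 CPM in pre-granulosa-like cells (91.6 ± 2.24) and at 64.7, 84.4 and 66.7 CPM in stromal-like cells (71.9 ± 10.8). The epithelial-like lots did not overlap any other class, and no lot's stromal-like value reached the pre-granulosa-like values. Sertoli-like cells held 47.6 ± 9.78 CPM, endothelial-like cells 28.7 ± 9.48 CPM and germ-like cells 16.7 ± 3.41 CPM.

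Epithelial-like cells were above pre-granulosa-like cells in Aldh1a2 by a log2 fold change of 1.31 (SE 0.15, edgeR adjusted p = 5.97e-07), and stromal-like cells were below epithelial-like cells by -1.79 (SE 0.15, edgeR adjusted p = 1.49e-08). The smaller excess of pre-granulosa-like over stromal-like cells, 0.48 (SE 0.15, edgeR adjusted p = 0.0118), lost its call without lot 26 (0.37, adjusted p = 0.126) or lot 30 (0.41, adjusted p = 0.0681), at the coarser clustering (0.23, adjusted p = 0.272), and with the members among the variable genes (0.40, adjusted p = 0.055). Germ-like cells were lower by -2.81 against the 3 large somatic classes (-3.55 without called doublets), endothelial-like cells by -2.10, and Sertoli-like against pre-granulosa-like cells by -0.99. Epithelial-like clusters 4, 6, 8 and 10 lay close together, with means of 223, 231, 236 and 271 CPM. The stromal-like class was split, with 122 ± 21.5 CPM in cluster 9 (led by Lum, Inhba and Agtr2) and 124 ± 28.6 CPM in cluster 11 (led by Dkk2 and Foxd1), against 45 and 58 CPM in clusters 3 and 5. A UMI was found in 58.0% of thinned epithelial-like cells (88.1% unthinned, median depth 13326 UMIs) and 1.33% of thinned red-blood-cell-like cells (12.8% unthinned).

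Aldh1a3 (chromosome 7, 66390890 to 66427517, minus strand), the third retinaldehyde dehydrogenase of this family, was low in every class but concentrated in the small clusters 12 and 17. Its level in pre-granulosa-like cells was 5.64, 3.89 and 5.07 CPM (4.87 ± 0.90), in stromal-like cells 2.698, 1.003 and 2.15 CPM (1.95 ± 0.87) and in epithelial-like cells 0.91, 0.67 and 0.78 CPM (0.79 ± 0.12). The pre-granulosa-like class owed much of its level to cluster 12, 807 cells led by Lypd1, Pax8, Aldh1a3 and Stra6, where Aldh1a3 stood at 57.3, 45.2 and 45.9 CPM (49.5 ± 6.79). The place of cluster 12 in the class is in doubt: its pre-granulosa markers lay on average 1.41 log2 units above their median over clusters, against 2.27 to 2.57 in clusters 0, 1 and 2, and none was among its 10 leading genes. Without cluster 12, the class held 2.39 ± 0.32 CPM. As Aldh1a3 is one of the leading genes of cluster 12, its level there is a description and not a test. The unnamed cluster 17 (149 cells) stood at 25.5, 18.6 and 49.8 CPM of Aldh1a3. When clustered at resolution 1.2, 76 cells were named mesonephric-tubule-like, and these held 49.2 ± 21.6 CPM.

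Pre-granulosa-like cells were above stromal-like cells in Aldh1a3 by a log2 fold change of 1.42 (SE 0.25, edgeR adjusted p = 8.24e-05), but the difference was 0.42 (edgeR adjusted p = 0.20) with cluster 12 left out. Epithelial-like cells were below pre-granulosa-like cells by -2.67 (SE 0.28, edgeR adjusted p = 1.22e-07), and by -1.66 without cluster 12. Stromal-like cells exceeded epithelial-like cells by 1.25 (SE 0.30, edgeR adjusted p = 0.00258), 1.84 without called doublets. This call was lost without lot 26 (1.09, adjusted p = 0.0558), without lot 30 (1.21, adjusted p = 0.0727) and at the coarser clustering (0.80, adjusted p = 0.0771). Germ-like cells were lower by -1.42. The Sertoli-like against pre-granulosa-like difference of -1.11 (SE 0.44) did not pass (edgeR adjusted p = 0.0562) on 2, 11 and 0 UMIs, but passed without lot 29 (-2.36, adjusted p = 0.0178), without the low-count filter (-1.17, adjusted p = 0.0465) and with 30 principal components (-1.18, adjusted p = 0.0313). Thinned to equal depth, 15.7% of the cells of cluster 12 had an Aldh1a3 UMI (26.3% unthinned), against 0.549%, 2.25% and 0.475% in clusters 0, 1 and 2. None of 78 red-blood-cell-like cells had one, which, at 3 counts of the 78, allows a share of cells with a UMI of up to 3.85%.

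**Figure D1:**
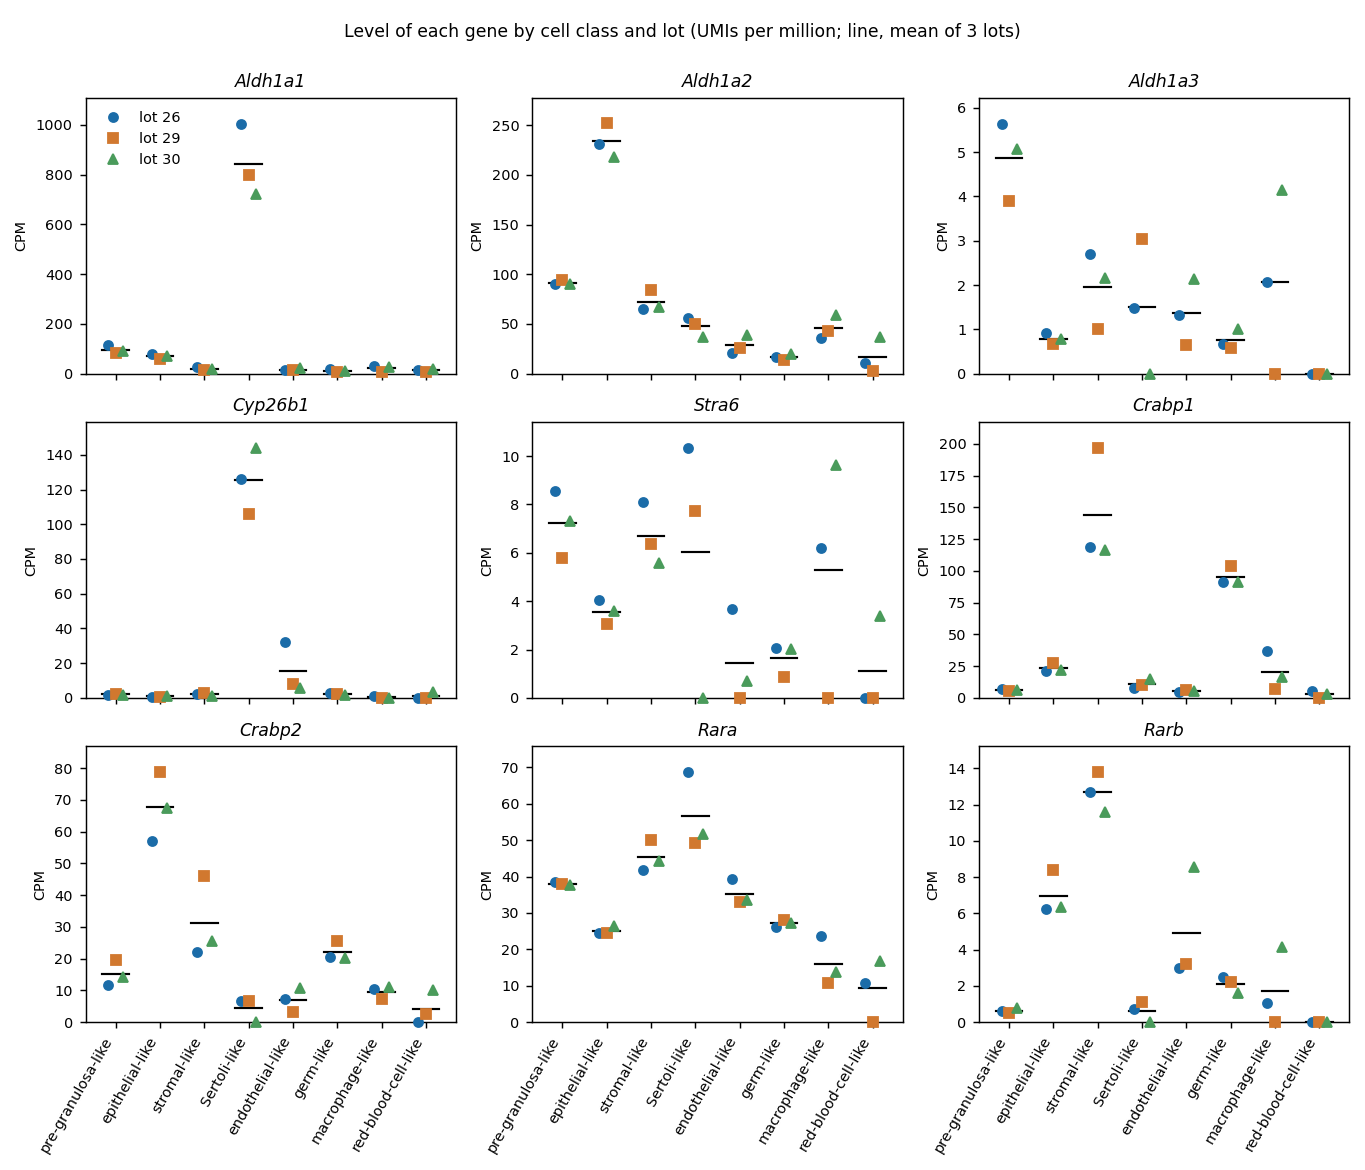
Level in CPM (linear axis from 0, scaled for each gene) of the 9 genes in 8 cell classes; each point is 1 lot and each line the mean of 3 lots. Aldh1a1 and Cyp26b1 are highest in all 3 lots of the Sertoli-like class, Aldh1a2 and Crabp2 in the epithelial-like class, and Crabp1 and Rarb in the stromal-like class.

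Cyp26b1 (chromosome 6, 84571414 to 84593908, minus strand), the enzyme that degrades retinoic acid in the fetal testis, was likewise highest in Sertoli-like cells, at 126, 106 and 144 CPM (125.5 ± 18.9). In the 3 large ovarian classes it was at 1.96 ± 0.49 CPM (pre-granulosa-like), 2.23 ± 0.83 CPM (stromal-like) and 0.84 ± 0.28 CPM (epithelial-like), and germ-like cells had 2.17 ± 0.49 CPM. These 4 low levels were neighbours whose lots overlapped, apart from the epithelial-like lots, which lay below those of the pre-granulosa-like, stromal-like and germ-like classes. Endothelial-like cells held 32.3, 7.76 and 5.72 CPM, from 97, 12 and 8 UMIs, so their mean rested mostly on lot 26. The unnamed steroidogenic cluster 14 was at 69.8, 47.3 and 58.1 CPM.

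Sertoli-like cells were above pre-granulosa-like cells in Cyp26b1 by a log2 fold change of 5.81 (SE 0.37, edgeR adjusted p = 1.05e-10). Endothelial-like cells were above the mean of the 3 large somatic classes by 3.50 (SE 0.38, edgeR adjusted p = 2.47e-07), and by 2.20 without lot 26 (adjusted p = 0.0115). Pre-granulosa-like and stromal-like cells differed by -0.04 (SE 0.38, edgeR adjusted p = 0.947). Epithelial-like cells were lower than pre-granulosa-like cells (-1.17, SE 0.41, edgeR adjusted p = 0.0248) and stromal-like cells higher than epithelial-like cells (1.21, SE 0.44, edgeR adjusted p = 0.0382), on class means under 3 CPM. The first of these calls was lost without lot 26 (-1.01, adjusted p = 0.0548) or lot 29 (-0.87, adjusted p = 0.20). The second was lost without lot 26 (0.97, adjusted p = 0.113) or lot 29 (0.88, adjusted p = 0.256), and it was 1.92 without lot 30 and 1.88 with 30 principal components.

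A Cyp26b1 UMI was found in 34.9% of thinned Sertoli-like cells (30.1% to 39.9%, 66.3% unthinned), in 6.69% of thinned endothelial-like cells (13.5% unthinned, median depth 14820 UMIs) and in 0.342% to 0.769% of the thinned cells of the pre-granulosa-like, stromal-like, epithelial-like and germ-like classes (1.17% to 4.62% unthinned). None of 130 thinned macrophage-like and 75 thinned red-blood-cell-like cells had one (0.741% and 1.28% unthinned). The upper ends of their exact intervals, 2.80% and 4.80%, lay above the thinned shares of those low classes. A low level in those classes therefore cannot be told apart from background. In Sertoli-like cells, 40.4%, 31.0% and 28.6% of thinned cells in lots 26, 29 and 30 had UMIs of both Aldh1a1 and Cyp26b1. As Aldh1a1 was found in 96.6%, 90.0% and 92.9% of those cells, these shares say little beyond the share with Cyp26b1. Over all kept cells of a lot, Cyp26b1 stood at 4.86, 7.71 and 1.80 CPM in lots 26, 29 and 30, the same order as the number of Sertoli-like cells. That class held 27.9%, 57.0% and 15.3% of the lot's Cyp26b1 UMIs while making up 0.916%, 3.32% and 0.149% of its cells. The steroidogenic cluster 14, with 126, 265 and 33 cells, had the same order and held 19.3%, 16.9% and 7.45% of these UMIs. Endothelial-like cells held 15.8% of them in lot 26.

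**Figure D2:**
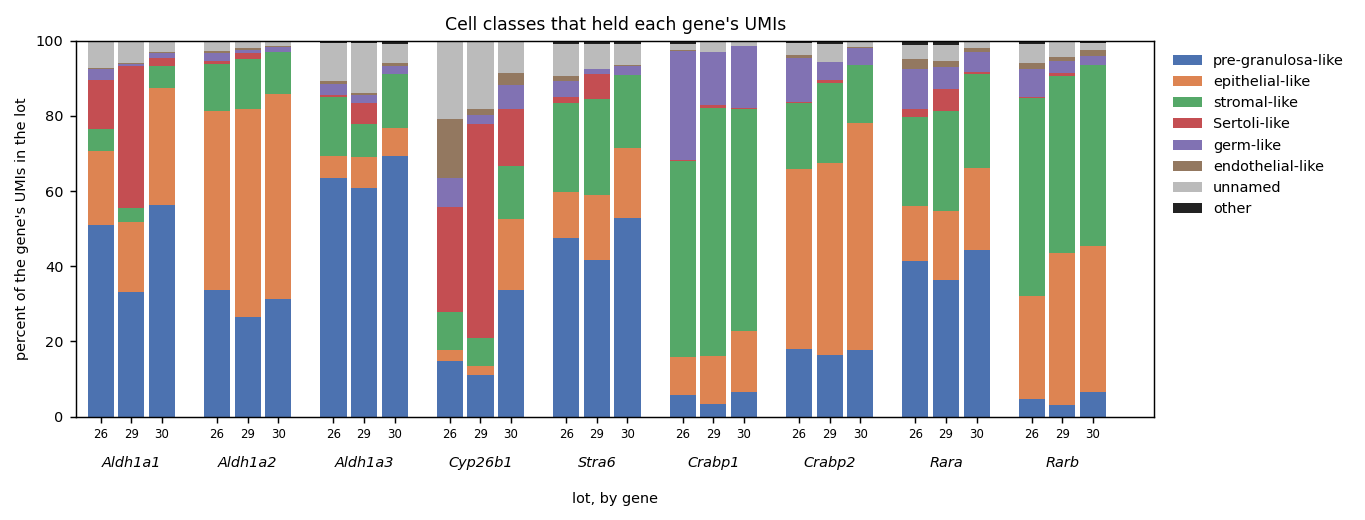
Share of each gene's UMIs (percent, vertical axis) that came from each cell class, as 1 stacked bar per lot (26, 29 and 30). The Sertoli-like part of the Cyp26b1 bars is 27.9%, 57.0% and 15.3%, and that of the Aldh1a1 bars 12.8%, 37.8% and 2.11%, although the class is a small part of each lot.

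Stra6 (chromosome 9, 58063788 to 58153996, plus strand), the membrane receptor that takes up retinol from its plasma carrier, was low in all classes. It was at 8.57, 5.80 and 7.31 CPM in pre-granulosa-like (7.23 ± 1.39), 8.10, 6.37 and 5.59 CPM in stromal-like (6.68 ± 1.28) and 4.03, 3.06 and 3.59 CPM in epithelial-like cells (3.56 ± 0.48). The pre-granulosa-like and stromal-like lots overlapped, and the epithelial-like lots lay below both. Like Aldh1a3, it was concentrated in cluster 12, at 74.8, 50.03 and 57.6 CPM (60.8 ± 12.7), followed by the unnamed cluster 17 (54.6, 28.6 and 61.5 CPM) and the unnamed cluster 13 of few UMIs per cell (24.8 ± 3.11). The stromal-like cluster 9 was at 20.5 ± 5.18 CPM. The 76 mesonephric-tubule-like cells of resolution 1.2 held 67.2 ± 28.6 CPM of Stra6. In thinned cells of cluster 12, 20.9% had a Stra6 UMI (37.8% unthinned), and 6.90%, 3.05% and 3.77% had UMIs of both Stra6 and Aldh1a3 in lots 26, 29 and 30, against 4.00%, 2.81% and 2.98% from the product of the separate shares. Without cluster 12, the pre-granulosa-like level of Stra6 was 4.22 ± 0.56 CPM.

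Epithelial-like cells were below pre-granulosa-like cells in Stra6 by -1.07 (SE 0.25, edgeR adjusted p = 0.0013), but by -0.31 (adjusted p = 0.337) without cluster 12. Pre-granulosa-like and stromal-like cells differed by 0.25 (SE 0.24, edgeR adjusted p = 0.41), with the sign reversed without cluster 12 (-0.51, adjusted p = 0.0953). Stromal-like cells were above epithelial-like cells by 0.82 (SE 0.25, edgeR adjusted p = 0.0166), a call lost without lot 26 (0.76, adjusted p = 0.062) or lot 30 (0.99, adjusted p = 0.064). Germ-like cells were lower by -1.68 (SE 0.28). Endothelial-like cells, with 11, 0 and 1 UMIs in the 3 lots, were lower by -1.53 (edgeR adjusted p = 0.0138). This value was -3.81 without lot 26 and -2.24 without called doublets, and its call was lost without lot 29 (-1.198, adjusted p = 0.0732) or lot 30 (-1.22, adjusted p = 0.116).

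Crabp1 (chromosome 9, 54764748 to 54773110, plus strand), a cytoplasmic retinoic acid-binding protein linked to its turnover, was highest in stromal-like cells, with 119, 197 and 117 CPM (144 ± 45.7). Germ-like cells came next at 90.9, 104 and 91.3 CPM (95.5 ± 7.56), with no overlap between the lots of these classes. Epithelial-like cells held 23.5 ± 3.36 CPM, Sertoli-like cells 11.1 ± 3.37 CPM, pre-granulosa-like cells 6.15 ± 0.66 CPM and endothelial-like cells 5.50 ± 1.08 CPM, of which the last pair of neighbours overlapped. Lot 29 stood apart in stromal-like cells, and most so in cluster 11, at 177, 533 and 187 CPM, whereas cluster 3 was even at 78.5, 82.5 and 82.3 CPM. Clusters 5 and 9 had means of 120.3 and 185 CPM.

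Pre-granulosa-like cells were below stromal-like cells in Crabp1 by -4.42 (SE 0.21, edgeR adjusted p = 5.36e-13). Epithelial-like cells were above pre-granulosa-like cells by 1.89 (SE 0.19) and stromal-like above epithelial-like cells by 2.53 (SE 0.19, edgeR adjusted p = 1.62e-09). It was the only member called higher in germ-like cells than in the mean of the 3 large somatic classes (1.78, SE 0.14, edgeR adjusted p = 3.54e-10), and endothelial-like cells were lower by -2.42. After thinning, 30.0% of germ-like cells had a Crabp1 UMI (78.1% unthinned, median depth 21214 UMIs) and 24.3% of stromal-like cells (35.3% unthinned, median depth 9282 UMIs). Pre-granulosa-like (2.16%, 5.53% unthinned) and endothelial-like cells (1.45%, 5.73% unthinned) were below the 2.67% of red-blood-cell-like cells (2.56% unthinned). That 2.67% rested on 2 of 75 cells (0.325% to 9.30%), so a low level in these classes cannot be told apart from background. Germ-like cells with a Stra8 UMI after thinning had 94.1, 109 and 96.4 CPM of Crabp1, and those without one 81.1, 94.6 and 75.2 CPM. The values with Stra8 were higher in each of the 3 lots, but the groups overlapped. In the same split Aldh1a2 was lower with Stra8 (13.9, 10.51 and 18.7 CPM) than without (23.8, 19.4 and 25.3 CPM), with no overlap, and Aldh1a1 was lower with Stra8 in each lot (14.7, 5.26 and 11.2 against 26.3, 6.16 and 15.03 CPM). These are descriptions, with no test, and called doublets were kept in them. Aldh1a1 and Aldh1a2 had their lowest means of the tested classes in germ-like cells. The thinned germ-like share of Aldh1a2, 5.19% (22.7% unthinned), lay within the red-blood-cell-like interval of 0.0338% to 7.21%. As that interval rested on 1 of 75 cells, a low Aldh1a2 level in germ-like cells cannot be told apart from background, as for Aldh1a1. Removing called doublets moved the germ-like Aldh1a2 difference from the somatic classes from -2.81 to -3.55. What made the differences of this split was not tested.

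Crabp2 (chromosome 3, 87948666 to 87953376, plus strand), the relative of Crabp1 that delivers retinoic acid to its nuclear receptor, was highest in epithelial-like cells, at 57.1, 78.7 and 67.4 CPM (67.8 ± 10.8). Stromal-like cells held 22.2, 46.1 and 25.5 CPM (31.2 ± 12.99), germ-like cells 22.1 ± 3.06 CPM and pre-granulosa-like cells 11.8, 19.7 and 14.1 CPM (15.2 ± 4.04). The lots of stromal-like and germ-like cells overlapped. Lot 29 was the highest in all 4 of these classes. Endothelial-like and Sertoli-like cells were lowest of the tested classes, at 7.09 ± 3.75 and 4.43 ± 3.84 CPM. The epithelial-like cluster 10 reached 109 ± 9.78 CPM and the unnamed cluster 17 reached 63.1, 159 and 129 CPM.

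Epithelial-like cells were above pre-granulosa-like cells in Crabp2 by 2.12 (SE 0.25, edgeR adjusted p = 7.43e-07). Stromal-like cells were below epithelial-like cells (-1.21, SE 0.24) and pre-granulosa-like below stromal-like cells (-0.91, SE 0.25, edgeR adjusted p = 0.00463). The lower level in germ-like cells (-0.55, SE 0.22, edgeR adjusted p = 0.0292) missed the threshold with DESeq2's size factors (-0.48, adjusted p = 0.0562), by DESeq2's Wald test (-0.46, adjusted p = 0.095) and without lot 30 (-0.51, adjusted p = 0.149). Endothelial-like cells were lower by -2.21. Sertoli-like cells, with 9, 24 and 0 UMIs, were below pre-granulosa-like cells by -1.38 (SE 0.49, edgeR adjusted p = 0.0312). The last call was lost without lot 26 (-1.43, adjusted p = 0.0701) or lot 30 (-1.28, adjusted p = 0.101), and its value was -2.10 without called doublets. In thinned stromal-like cells, UMIs of both Crabp1 and Crabp2 were found in 3.14%, 6.69% and 3.46% of cells in lots 26, 29 and 30, above the 1.75%, 3.81% and 1.91% from the product of the separate shares in each lot. Clusters 9 and 11 were high in both genes.

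Rara (chromosome 11, 98927818 to 98974942, plus strand), the broadly used retinoic acid receptor, varied over a narrow range of class means. It was at 68.7, 49.2 and 51.7 CPM in Sertoli-like (56.5 ± 10.6), 41.9, 49.9 and 44.3 CPM in stromal-like (45.4 ± 4.10) and 38.6, 37.8 and 37.8 CPM in pre-granulosa-like cells (38.1 ± 0.44). Endothelial-like cells had 35.3 ± 3.52 CPM, germ-like cells 27.1 ± 0.96 CPM and epithelial-like cells 25.1 ± 1.03 CPM. Sertoli-like and stromal-like lots overlapped, as did pre-granulosa-like with endothelial-like lots and germ-like with epithelial-like lots. Epithelial-like cells were below pre-granulosa-like cells (-0.65, SE 0.10, edgeR adjusted p = 2.59e-05) and stromal-like above epithelial-like cells (0.76, SE 0.10, edgeR adjusted p = 5.48e-06). Germ-like cells were lower by -0.39. Sertoli-like cells were above pre-granulosa-like cells by 0.43 (SE 0.12, edgeR adjusted p = 0.00953). This call was lost without lot 26 (0.41, adjusted p = 0.0621).

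Rarb (chromosome 14, 16430839 to 16819156, minus strand) encodes a receptor that is itself raised by retinoic acid, and it split the ovarian somatic classes. Stromal-like cells held 12.7, 13.8 and 11.6 CPM (12.7 ± 1.10) and epithelial-like cells 6.23, 8.40 and 6.33 CPM (6.99 ± 1.22). Endothelial-like cells held 3.00, 3.23 and 8.57 CPM (4.94 ± 3.15). Pre-granulosa-like cells were at 0.59, 0.49 and 0.76 CPM (0.62 ± 0.14), Sertoli-like cells at 0.61 ± 0.56 CPM and germ-like cells at 2.10 ± 0.45 CPM. The stromal-like lots were above those of all other classes. Pre-granulosa-like cells were below stromal-like cells by -4.18 (SE 0.23, edgeR adjusted p = 8.7e-12). Epithelial-like cells were above pre-granulosa-like cells by 3.41 (SE 0.23, edgeR adjusted p = 3.5e-10), stromal-like above epithelial-like cells by 0.77 (SE 0.19, edgeR adjusted p = 0.00333), and germ-like cells were lower by -0.86 (SE 0.23).

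Among clusters, Rarb was highest in the stromal-like cluster 9 (27.99 ± 2.34 CPM), the epithelial-like cluster 10 (22.5 ± 2.79) and the unnamed cluster 17 (21.9 ± 4.23). At resolution 1.2, the 76 cells named mesonephric-tubule-like held 15.9 ± 7.30 CPM of Rarb from 19 UMIs, against 44 UMIs in cluster 17. Which cells of cluster 17 held its Rarb UMIs was not tested. Clusters 0, 1, 2 and 12 of the pre-granulosa-like class all had means of 0.5 to 0.6 CPM. A UMI was found in 5.21% of thinned stromal-like (11.4% unthinned), 2.97% of thinned epithelial-like (8.42% unthinned) and 0.181% of thinned pre-granulosa-like cells (0.680% unthinned). None of 78 red-blood-cell-like cells had one, which allows a share of cells with a UMI of up to 3.85% on the same rule. An exon of Rarb overlaps one of Top2b, a topoisomerase gene on the other strand. As it is not given in the sources used here whether the counting used strand, reads of the overlapping part may not be told apart.

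**Figure D3:**
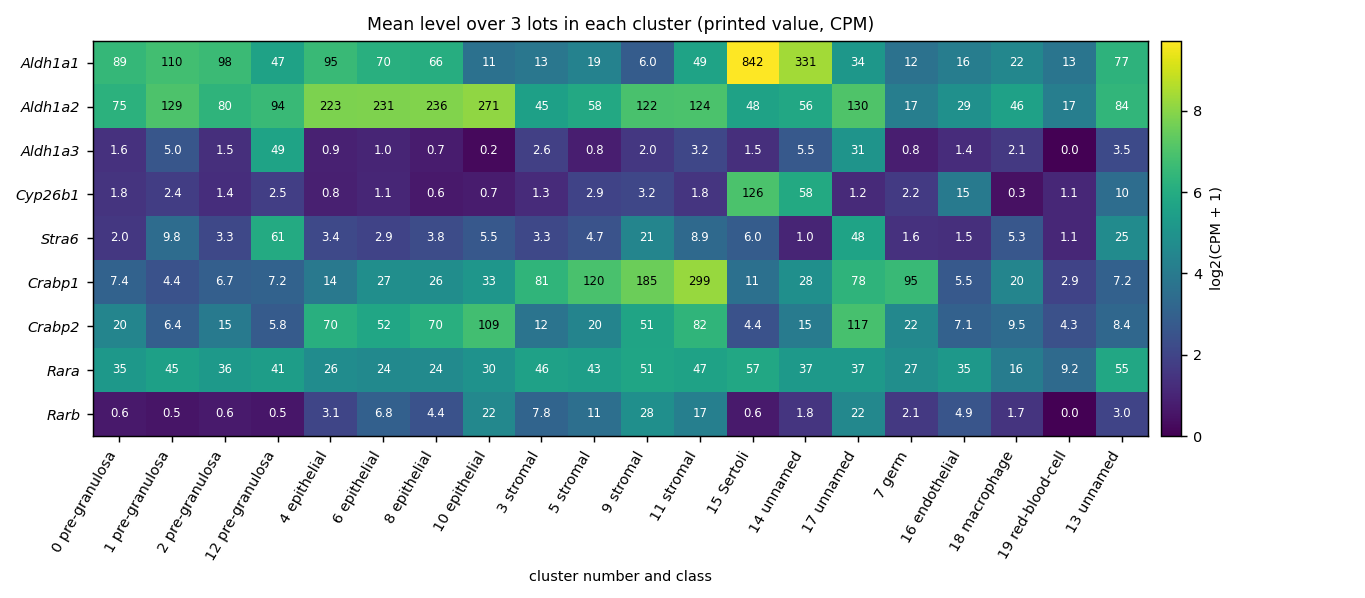
Mean level over 3 lots of the 9 genes (rows) in 20 clusters (columns, with number and class; the neural-crest-like cluster is left out for its few cells in lot 30). Colour is log2(CPM + 1) and the printed values are CPM; Aldh1a3 and Stra6 stand out in clusters 12 and 17, and Rarb in clusters 9, 10 and 17.

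Counted over the members, most differed between the classes, and so did many of all genes. Between pre-granulosa-like and stromal-like cells 6 of 9 members passed the test, 3 higher and 3 lower, where 49.9% of all 14870 genes tested passed (27.2% higher, 22.7% lower). Epithelial-like against pre-granulosa-like cells gave 8 of 9, 4 higher and 4 lower, against 46.5% of all genes (20.9% higher, 25.6% lower). Stromal-like against epithelial-like cells gave 9 of 9, 6 higher and 3 lower, against 33% of all genes (17.1% higher, 15.9% lower). The median log2 fold change of the members in these 3 comparisons was -0.04, -0.50 and 0.77, and that of all genes 0.04, -0.05 and -0.01. The 3 comparisons share their samples. With the lot as a replicate block, the stromal-like against epithelial-like comparison called 7751 genes, 3711 higher and 4040 lower, in place of 4906, 2544 higher and 2362 lower, and still 9 members.

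Against the mean of the 3 large somatic classes, 8 of 9 members passed in germ-like cells, 1 higher and 7 lower, beside 77.3% of all genes (38% higher, 39.4% lower), so the members' share was near the background. In endothelial-like cells 6 of 9 passed, 1 higher and 5 lower, beside 41.6% of all genes (18% higher, 23.6% lower). In Sertoli-like against pre-granulosa-like cells 5 of 9 passed, 3 higher and 2 lower, beside 37.9% of all genes (15.4% higher, 22.6% lower). The members' medians were -0.86, -1.53 and 0.43, and those of all genes -0.05, -0.14 and -0.17. Scaling by DESeq2's size factors moved the all-gene medians of the endothelial-like and Sertoli-like comparisons to -0.02 and -0.07, and the called genes of the endothelial-like comparison from 2683 higher and 3506 lower to 3335 higher and 2820 lower. It also turned the balance of called genes in pre-granulosa-like against stromal-like cells (4039 higher and 3377 lower to 3682 and 3823) and in germ-like cells (5646 higher and 5852 lower to 6022 and 5501). No called member changed direction under that scaling.

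**Figure D4:**
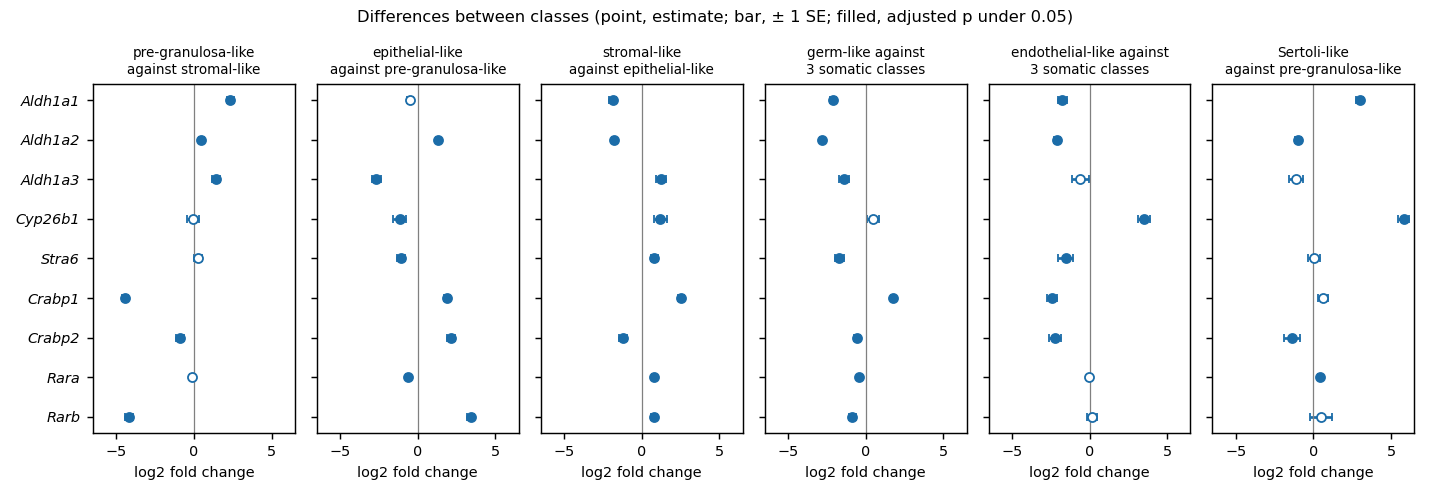
Log2 fold change (horizontal axis, positive where the first-named class is higher) of the 9 genes in 6 comparisons; points are edgeR estimates, bars 1 SE on either side, and filled points have an adjusted p under 0.05. Cyp26b1 reaches 5.81 in Sertoli-like against pre-granulosa-like cells, and Crabp1 and Rarb lie at -4.42 and -4.18 in pre-granulosa-like against stromal-like cells.

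The other genes of the retinoid pathway were taken from a list of 46, of which 45 were in the tables and 34 passed the filter on low counts. Of these 34, the test was passed by 22 between pre-granulosa-like and stromal-like cells (7 higher, 15 lower), by 19 between epithelial-like and pre-granulosa-like cells (11 higher, 8 lower) and by 18 between stromal-like and epithelial-like cells (12 higher, 6 lower). In germ-like, endothelial-like and Sertoli-like comparisons 26 (9 higher, 17 lower), 15 (7 higher, 8 lower) and 17 (6 higher, 11 lower) passed. These were 64.7%, 55.9%, 52.9%, 76.5%, 44.1% and 50% of the 34, beside 49.9%, 46.5%, 33%, 77.3%, 41.6% and 37.9% of all genes, so that the germ-like and endothelial-like shares were near the background. Their median log2 fold changes were -0.25, 0.04, 0.12, -0.38, -0.09 and -0.49 in the 6 comparisons.

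Of the enzymes acting on retinol and retinaldehyde, Rdh10, which makes retinaldehyde in the embryo, was at 20.7 ± 1.38 CPM in stromal-like, 12.6 ± 0.80 CPM in pre-granulosa-like and 4.46 ± 2.53 CPM in Sertoli-like cells. Dhrs3, which reduces retinaldehyde back to retinol, was highest in pre-granulosa-like cells of the tested classes (54.8 ± 3.18 CPM) and lower in epithelial-like (26.2 ± 1.24 CPM), Sertoli-like (13.1 ± 5.92 CPM) and germ-like cells (7.31 ± 1.32 CPM). The Dhrs3 difference between epithelial-like and pre-granulosa-like cells was -1.11 (SE 0.10, edgeR adjusted p = 2.79e-08). Dhrs4, another member of that reductase family, had 98.6 ± 7.34 CPM in pre-granulosa-like and 16.8 ± 2.39 CPM in germ-like cells. Rdh14 lay within 18.7 to 30.6 CPM in the means of all 6 tested classes.

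Of the alcohol dehydrogenases, Adh5 was at 172 to 432 CPM in the means of the 6 classes, and Adh1 was at 20.6 ± 7.86 CPM in Sertoli-like and 1.99 ± 0.72 CPM in pre-granulosa-like cells (2.98, SE 0.60, edgeR adjusted p = 0.000502). In the steroidogenic cluster 14, Adh1 is a leading gene and stood at 299, 57.3 and 18.3 CPM in lots 26, 29 and 30. Aldh1a7, the relative of Aldh1a1, was at 28.5 ± 6.13 CPM in Sertoli-like, 19.5 ± 4.47 CPM in pre-granulosa-like and 4.84 ± 1.198 CPM in stromal-like cells. For breakdown, Cyp26a1 (named outside the level set for naming genes), whose promoter is shown with that of Rarb, was near 0 in all tested classes, with class means of 0 to 0.227 CPM.

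Fabp5, a fatty acid-binding protein that can also carry retinoic acid, was low in pre-granulosa-like (51.7 ± 11.1 CPM) and germ-like cells (30.1 ± 3.60 CPM) and high in epithelial-like (282 ± 20.4 CPM), stromal-like (286 ± 22.2 CPM) and endothelial-like cells (448 ± 64.2 CPM). It was higher in epithelial-like than in pre-granulosa-like cells by 2.39 (SE 0.20, edgeR adjusted p = 7.15e-09). Among receptors, Rxrb, a partner of the RARs, had class means of 28.1 to 38.1 CPM and passed no comparison. Rarg, the remaining RAR, did not reach the level set for naming genes and was picked after its values were seen. It was highest in endothelial-like cells at 28.3, 9.05 and 15.7 CPM, and was at 8.09 ± 1.32 CPM in stromal-like and 1.07 ± 0.24 CPM in pre-granulosa-like cells.

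Of the genes known to respond to retinoic acid, Tgm2, a transglutaminase, was at 28.9 ± 5.42 CPM in epithelial-like, 23.2 ± 4.76 CPM in stromal-like and 5.50 ± 1.28 CPM in pre-granulosa-like cells (2.32 in epithelial-like against pre-granulosa-like cells, SE 0.20, edgeR adjusted p = 1.14e-08). Rarres2, which encodes the adipokine chemerin, was at 86.7 ± 6.07 CPM in stromal-like, 54.6 ± 6.99 CPM in epithelial-like and 33.9 ± 1.34 CPM in pre-granulosa-like cells. Stra8, needed for meiotic entry, stood at 749, 568 and 690 CPM in germ-like cells, and Rec8, a meiotic cohesin subunit, at 160 ± 14.9 CPM. Stra8 was also a leading gene of the germ-like cluster, so its level there is a description. A Stra8 UMI was found in 74.5% of thinned germ-like cells (89.8% unthinned) and in 1.053% to 1.30% of thinned pre-granulosa-like, stromal-like and epithelial-like cells (2.99% to 4.09% unthinned).

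For each member, the genes whose levels were most like it were found by Pearson's r of log2(CPM + 1) over 60 sums (20 clusters in 3 lots) among 10327 genes. The sums of a lot share a library and differ in depth, and the values are descriptions. Rarb was nearest to the homeobox genes Hoxa3 (r = 0.906) and Hoxa5 (r = 0.869). Crabp1 was nearest to Twist1, a transcription factor of mesenchyme (r = 0.861), and Cntfr (r = 0.821), and Crabp2 to Tox3 (r = 0.794) and Fsd1 (r = 0.788). Cyp26b1 was nearest to Mmd2 (r = 0.843) and Gdnf, a growth factor secreted by Sertoli cells (r = 0.824). Aldh1a1 was nearest to Fdxr, which passes electrons to steroidogenic enzymes (r = 0.884), and Aldh1a7 (r = 0.851). Aldh1a2 was nearest to Tmem98 (r = 0.909) and Zcchc3 (r = 0.887), and Rara to Pdcl (r = 0.911) and Crtap (r = 0.904). Aldh1a3 was nearest to Fam132a (r = 0.753) and Lypd1 (r = 0.750), and Stra6 to Tenm3 (r = 0.790) and Lypd1 (r = 0.761). Between members, r was highest for Rarb with Crabp1 (0.750) and Crabp2 (0.740) and for Stra6 with Aldh1a3 (0.692).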

How the data were processed

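The authors deposited 1 table of UMI counts per gene and barcode for each of the 3 lots (10X Genomics 3′ libraries). Per the study's methods, UMI-tools listed valid barcodes, STAR 2.7 aligned reads to GRCm38, only uniquely mapped reads were kept and featureCounts 2.0.1 assigned them to genes. The deposited counts are not normalized. Barcodes with 200 to 9000 genes and at most 10% mitochondrial UMIs were kept here. The lots held 126680758, 87494974 and 141920060 UMIs. Cells were clustered with Seurat 5.3.0 (2000 variable genes, of which 17 members and pathway genes were held out, 50 principal components, resolution 0.8) and named from marker lists. Doublets were called by Scrublet in scanpy 1.11.5 (566, 347 and 635 cells) and removed only as an alternative.

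Counts were summed per class and lot and tested with edgeR 4.0.16 (TMM scaling, filterByExpr, quasi-likelihood test, Benjamini-Hochberg over all genes), class only, in 1 fit over the 6 classes compared, each with at least 10 cells in every lot. The script was tested on simulated data. The members and lists were chosen with earlier results of these data known. The rule for named genes takes the 9 members, at most 15 pathway genes reaching 20 CPM in a tested class, and the 2 most similar genes per member; Rarg and Cyp26a1 are named outside it, after their values were seen. Lots are pools of embryos, so p-values measure the spread between pools. Classes of 1 lot come from the same pool, which pairs them: deviations of same-lot sums had a median correlation of 0.169 over 45 pairs. The comparison for mesonephric-tubule-like cells was not fitted, as no cluster took that name in the main clustering; one did at resolutions 0.4 and 1.2 and with the members among the variable genes, and those fits are not reported. Alternatives were DESeq2 1.42.0 (size factors and Wald test), no low-count filter, the lot as a replicate block, each lot left out, other cell filters and other clusterings. Cluster 12 was left out of its class as an alternative chosen after seeing the data.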

Additional observations from a re-analysis of the deposited data

How the results depend on the processing

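Of the 42 member differences that passed the test, 31 kept their direction and their call under all 15 alternatives, 11 lost the call under at least 1, and none changed direction. The number of members called stayed within 1.5 times in all 6 comparisons and all alternatives, except that Sertoli-like against pre-granulosa-like cells had 3 to 6 members when 1 lot was left out, 3 without lot 26. The lot as a replicate block added 1 call, the Aldh1a1 difference between epithelial-like and pre-granulosa-like cells (-0.49), and changed no other call. Stra6 in pre-granulosa-like against stromal-like cells was -0.13 at resolution 0.4 and -0.51 without cluster 12. Cyp26b1 in that comparison was 0.041 with all deposited barcodes and ranged from -0.198 to 0.0416 when 1 lot was left out. The causes were not tested. Of 594 class levels recomputed under alternatives, 14 moved by over 1 SD. Depth limits the levels in Sertoli-like cells of lot 30 (16 cells) and in red-blood-cell-like cells, and the levels of Aldh1a3, Cyp26b1, Stra6 and Rarb in classes where few UMIs were found.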
